A study of Mus musculus with 6 samples.

Results

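The 8 genes described here include those of the pump that returns calcium to the sarcoplasmic reticulum of the heart muscle cell, of its inhibitor and of a related pump. The rest encode subunits of kinases that phosphorylate this inhibitor, and a protein that blocks the phosphatase acting on it. All were taken by name from a table of 16018 genes, and 8 of 8 were found: Atp2a2, Atp2a3, Pln, Camk2d, Camk2g, Ppp1r1a, Prkaca and Prkar1a. RNA was sequenced from whole hearts of 3 female NBCe1-B/C KO mice and 3 female WT mice, each 4 to 5 weeks old, with each library made from a different mouse. NBCe1 is the electrogenic sodium bicarbonate cotransporter encoded by Slc4a4, and these mice lack its B and C variants. The loss is congenital and global, so it is not particular to heart muscle. Both groups came from crosses of heterozygous mice on a C57BL/6J background, and the labels name no treatment. The comparison asks whether the transcripts of this calcium uptake system differ between hearts with and without these variants.

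In the cardiac cycle, calcium released from the sarcoplasmic reticulum starts contraction, and its return through the pump SERCA2 allows relaxation and refills the store for the next beat. Phospholamban binds SERCA2 and lowers its affinity for calcium until it is phosphorylated by protein kinase A or by the calcium/calmodulin-dependent kinase CaMKII. Protein phosphatase 1 removes these phosphates, and inhibitor-1 blocks that phosphatase once protein kinase A has phosphorylated it. Transcript levels measure neither the phosphorylation nor the activity of these proteins.

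The deposited values are normalized counts, that is, reads counted on a gene divided by a size factor for the library, without scaling to gene length. Reads on genes numbered 42619258 to 49100802 in KO libraries and 41364857 to 42037397 in WT libraries. For Slc4a4, the targeted gene, the libraries labelled KO held 264 (replicate 1), 944.8 (replicate 2) and 268.7 (replicate 3) normalized counts. The WT libraries held between 675.1 and 822.2, and the log2 fold change was -0.90 (SE 0.42, adjusted p = 0.239 from limma). With all 6 libraries, DESeq2 gave an adjusted p of 0.54. Without KO replicate 2, the difference was -1.51 on the log2 scale (adjusted p = 0.0121 from limma and 9.83e-20 from DESeq2). KO replicate 2 was singled out by its high Slc4a4 value, so the p-values without it cannot test whether Slc4a4 is lower in KO. KO replicate 2, as it is labelled, was above each WT library, against its label, and values without it are given beside the results. These counts are summed over all variants of the gene. Of 16016 genes tested with limma on log2(normalized count + 1), 0 (0.0%) had an adjusted p under 0.05 after Benjamini-Hochberg adjustment over all genes, and 3764 (23.5%) had an unadjusted p under 0.05. On the recovered reads, edgeR's quasi-likelihood test also gave 0, with 3837 unadjusted, whereas the Wald test of DESeq2 gave 1587 of 11981 genes (13.2%). The fold change was related to transcript length across genes, though genes are no replicates of each other (Spearman's rank correlation 0.45), so the difference of each of the 8 genes is also given after a correction for length and GC content. Heart muscle markers were at high levels in all 6 libraries, with 6 of 6 listed and none at 0.

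None of the 8 genes passed the adjusted threshold with limma. Of the 8, Atp2a2 had the largest positive fold change, and its KO libraries all lay above its WT libraries. An unadjusted p under 0.05 was found for 3 of the 8, namely Atp2a2, Atp2a3 and Prkaca, each higher in KO, where 13.0% of all genes had one in that direction. With DESeq2, 1 of the 8 was called, Atp2a2, where 8.22% of all genes were called as higher in KO. After the length and GC correction, DESeq2 still called 1 of the 8, Atp2a2, where 2.44% of all genes were called, 1.25% as higher and 1.19% as lower in KO. The KO and WT values did not overlap for 3 genes with KO above WT (Atp2a2, Camk2d and Prkaca) and for 1 gene with KO below WT (Ppp1r1a), beside 15.6% and 14.6% of all genes in these directions and 30.2% in either. The median log2 fold change of the 8 genes was 0.11, beside -0.0043 over all genes. In an exact two-sided permutation test of 3 mice against 3, the smallest possible p is 0.1, and it was reached by the 4 genes without overlap. Any gene without overlap reaches it, so this p adds nothing to the overlap count and its 30.2% of all genes.

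**Figure D1:**
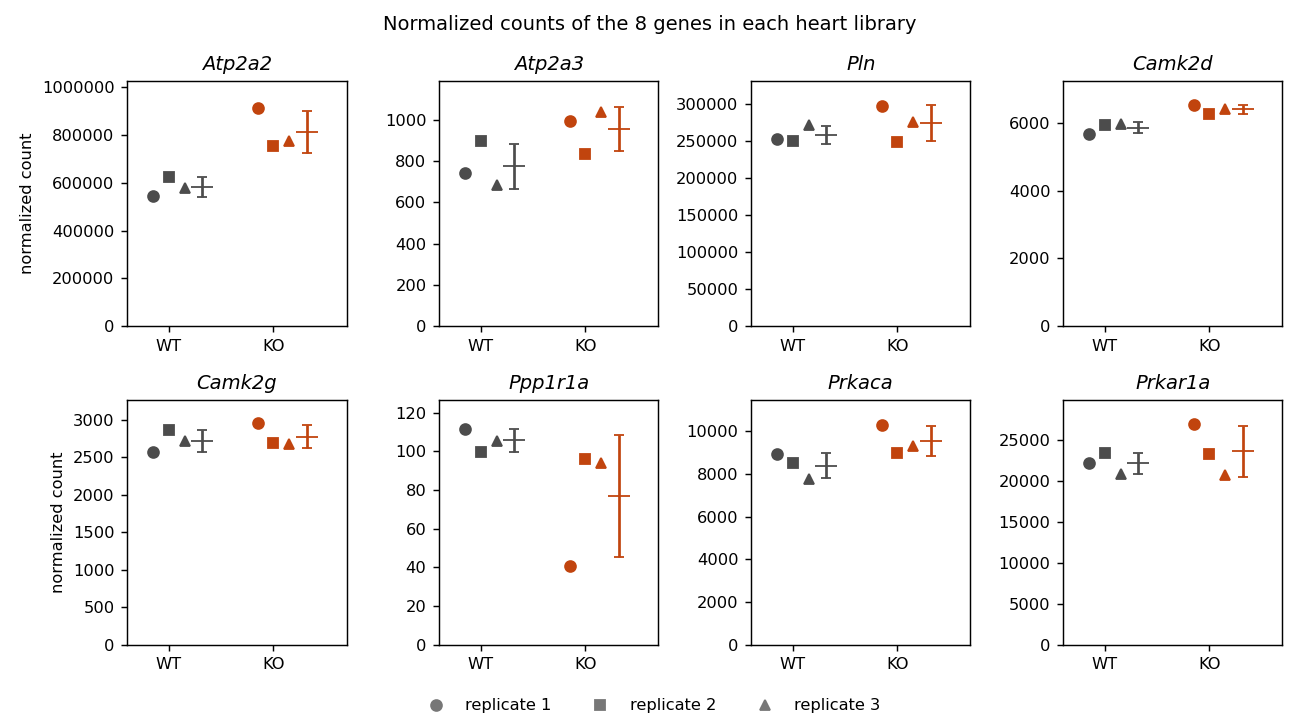
Normalized counts (y axis, linear, from 0) of the 8 genes in the 3 WT and 3 KO heart libraries, with circles, squares and triangles for replicates 1, 2 and 3 and a bar for the mean ± SD. The 3 KO points lie above the 3 WT points for Atp2a2, Camk2d and Prkaca and below them for Ppp1r1a, where KO replicate 1 stands at 40.7.

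Atp2a2 encodes SERCA2, whose main product in heart muscle is the pump SERCA2a (ENSMUSG00000029467, minus strand of chromosome 5 from 122453513 to 122502225 in GRCm38). Its normalized count was 914499, 752693.5 and 774886.5 in KO replicates 1, 2 and 3. In WT replicates 1, 2 and 3, it was 543885, 623593 and 579603. The lowest KO value was above the highest WT value, and KO replicate 1 was the highest of the 6. The group levels were 814026 ± 87717 in KO and 582360 ± 39925 in WT (mean ± SD, n = 3 each), so the KO mean was 1.40 times the WT mean. This was a log2 fold change of 0.48 (SE 0.16, 95% confidence interval 0.11 to 0.85), with an adjusted p of 0.129 from limma, which does not pass the threshold.

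The call for Atp2a2 differed between tests. DESeq2, an alternative count test, gave a log2 fold change of 0.48 with an adjusted p of 0.000114, and the adjusted p stayed between 0.00014 and 0.00783 with each library left out in turn, a check added after the data had been seen. The adjusted p from edgeR was 0.0805. Without KO replicate 2, the log2 fold change was 0.53 with limma (adjusted p = 0.179) and 0.54 with DESeq2 (adjusted p = 0.000147). With the correction for length and GC content, it fell to 0.34 with limma (adjusted p = 0.469) and to 0.34 with DESeq2 (adjusted p = 0.0125). Atp2a2 ranked 6 among all genes by normalized count in each of the 6 libraries, so quantile normalization, which gives equal ranks equal values, sets its difference to 0 by construction.

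The values of Atp2a2 can be placed beside those of other long and abundant transcripts. Its longest annotated transcript has 5674 nucleotides, and the 1187 genes with transcripts within 1.1-fold of that length had a median log2 fold change of 0.13, with 95.5% of them below Atp2a2. Among the heart muscle markers, Myh6, the main adult myosin heavy chain of the mouse heart, had a log2 fold change of 0.55 (adjusted p = 0.119), and Ttn, which encodes the giant sarcomere spring titin, had one of 0.47 (adjusted p = 0.0876). The ventricular light chain Myl2 had one of -0.18, Tnnt2 one of -0.09, Tnni3 one of -0.13 and Actc1 one of 0.15. DESeq2 called 2 of these 6 markers as higher in KO and 0 as lower, beside 8.22% and 5.02% of all genes. The summed level of the 6 markers was 2362800 to 2632100 in KO and 2000500 to 2127500 in WT libraries, with 3 of 6 markers higher in KO. This sum mainly follows Myh6, which alone was at 1086163 to 1259230 in KO and at 742963 to 869071 in WT libraries. In RNA from whole hearts, a difference in the share of a cell type and a difference in RNA per cell cannot be told apart, and the part of these markers in the Atp2a2 result was not tested. In the GENCODE annotation, 3 short unclassified genes overlap Atp2a2. They had between 12.4 and 144 normalized counts, and how strand and shared reads were counted is not given in the sources used here.

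Atp2a3 encodes SERCA3, a pump isoform known from platelets, lymphocytes and endothelium rather than heart muscle (ENSMUSG00000020788, plus strand of chromosome 11 from 72961169 to 72993044). Its normalized count was 994, 837 and 1038 in KO replicates 1, 2 and 3, and 744, 897 and 687 in the same order in WT. The groups overlapped, since WT replicate 2 was above KO replicate 2. The log2 fold change was 0.30 (SE 0.12, interval 0.03 to 0.58, adjusted p = 0.178 from limma), 0.40 without KO replicate 2 and 0.26 after the length and GC correction. DESeq2 gave an adjusted p of 0.111, and of 0.0285 without WT replicate 2, the only single library whose removal brought a call.

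Markers of the cell types known for SERCA3 were summed in each library. The 4 endothelial markers, of which 4 were listed and none was at 0, summed to 35095 to 37921 normalized counts in KO and 32247 to 34335 in WT libraries. The sums of the groups did not overlap, and 4 of 4 were higher in KO by mean. Taken singly, the groups overlapped for Pecam1, Kdr and Tie1 and not for Cdh5, and with limma 0 of the 4 passed the adjusted threshold. DESeq2 called 1 of the 4 as higher in KO, beside 8.22% of all genes. The 4 platelet markers summed to 450.6 to 1505 in KO and 719.7 to 1543 in WT libraries. Of the 5 lymphocyte markers, 4 were listed (Cd3e was not), and they summed to 159.8 to 264.3 in KO and to 150.6, 438.7 and 185.6 in WT replicates 1, 2 and 3. WT replicate 2 was thus the highest of the 6 for both lists and the highest WT library for Atp2a3. Among the KO libraries, replicate 3 was the highest for both lists and for Atp2a3. KO replicate 1 was the lowest KO library for both lists (450.6 and 159.8). Its Atp2a3 value was nevertheless above those of KO replicate 2 and each WT library. The part of these cells in the Atp2a3 values was not tested.

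Pln encodes phospholamban, the small membrane protein that inhibits SERCA2 (ENSMUSG00000038583, plus strand of chromosome 10 from 53337667 to 53345987). Its normalized count was 297372, 248991 and 275184 in KO replicates 1, 2 and 3. In WT replicates 1, 2 and 3, it was 252232, 249212 and 272001. The groups overlapped, with KO replicate 1 the highest and KO replicate 2 the lowest of the 6 values. The means were 273849 ± 24218 in KO and 257815 ± 12378 in WT (mean ± SD, n = 3 each). Pln had a log2 fold change of 0.08 (SE 0.12, adjusted p = 0.714 from limma), with an interval of -0.19 to 0.36, so that KO levels from 0.877 to 1.28 times the WT level are compatible with these 6 hearts. This was 0.15 without KO replicate 2 and 0.18 after the length and GC correction, and DESeq2 gave an adjusted p of 0.541. Pln lies within Cep85l, which runs on the opposite strand and had 171.1 to 430.7 normalized counts, far below Pln.

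The ratio of phospholamban to SERCA2 transcripts was computed within each library, where the size factor cancels. Per kilobase of the longest annotated transcript, Pln/Atp2a2 was 0.79, 0.80 and 0.86 in KO replicates 1, 2 and 3, and 1.13, 0.97 and 1.14 in the same order in WT. All KO ratios were below all WT ratios. The means were 0.819 ± 0.0387 in KO and 1.08 ± 0.0941 in WT (mean ± SD, n = 3 each), a difference of -0.40 on the log2 scale, or 0.759 times the WT ratio. The difference kept its direction with each library left out, between -0.47 and -0.35, and was -0.38 without KO replicate 2. Neither gene of this ratio passed the adjusted threshold with limma, and the ratio is given as a description without a test. The transcripts differ in length (2334 nucleotides for Pln and 5674 for Atp2a2), and fold changes were related to length across all genes. The ratio itself carries no correction for length and GC content. With that correction, the log2 fold changes from limma lay closer together, at 0.18 for Pln and 0.34 for Atp2a2, beside 0.08 and 0.48 without it.

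**Figure D2:**
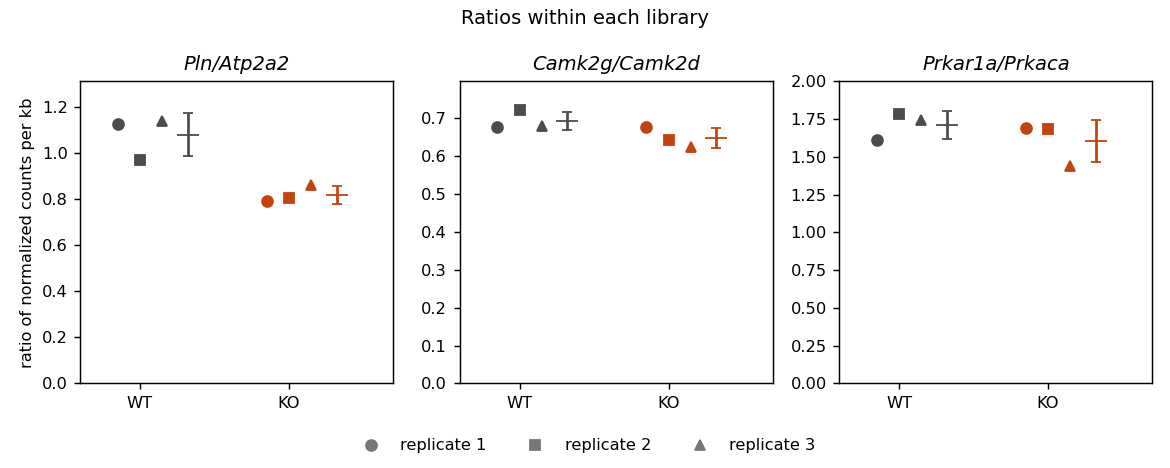
Ratios of normalized counts per kilobase of the longest transcript (y axis, linear, from 0) within each of the 3 WT and 3 KO libraries, with the mean ± SD of each group as a bar. The 3 KO ratios of Pln to Atp2a2, between 0.79 and 0.86, all lie below the WT ratios, between 0.97 and 1.14, whereas the groups overlap for Prkar1a/Prkaca.

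The levels of the 8 genes can be ordered only per length. Per kilobase of the longest transcript, the mean over the 6 libraries was 123051 for Atp2a2 and 113895 for Pln, followed by 6511 for Prkar1a, 3935 for Prkaca, 1108 for Camk2d, 740.8 for Camk2g, 188.1 for Atp2a3 and 69.9 for Ppp1r1a. Atp2a2 and Pln were not separated in the WT libraries, where their ratio lay on both sides of 1. With the median length of the protein-coding transcripts in place of the longest, Pln/Atp2a2 was 1.15 in KO and 1.51 in WT, and Camk2g/Camk2d was 2.15 in KO and 2.30 in WT, so the order within each of these pairs depends on the length used. Within the pump genes, Atp2a3/Atp2a2 was 0.00145 ± 0.000171 in KO and 0.00164 ± 0.000161 in WT, and these groups overlapped.

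Of the kinases that phosphorylate phospholamban, CaMKII is represented by its main cardiac isoforms delta and gamma. Camk2d, the delta isoform (ENSMUSG00000053819, plus strand of chromosome 3 from 126596302 to 126846326), was at 6517, 6251 and 6421 normalized counts in KO replicates 1, 2 and 3, and at 5660, 5932 and 5957 in the same order in WT. The KO values were all above the WT values, by a small margin. The log2 fold change was 0.13 (SE 0.06, adjusted p = 0.213 from limma), 0.15 without KO replicate 2 and 0.02 after the length and GC correction. Its longest transcript has 5524 nucleotides, and the 1259 genes of similar length had a median of 0.12, with 51.9% of them below Camk2d. Its difference was therefore close to the middle of that of transcripts of its length.

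Camk2g, the gamma isoform (ENSMUSG00000021820, minus strand of chromosome 14 from 20734875 to 20794088), was at 2951, 2692 and 2678 normalized counts in KO and at 2564, 2861 and 2713 in WT replicates 1, 2 and 3. The groups overlapped. Camk2g had a log2 fold change of 0.03 (SE 0.07, interval -0.13 to 0.19, adjusted p = 0.822 from limma), and its sign depended on the scaling, with -0.04 after rescaling to the same total and -0.02 after quantile normalization. It was 0.05 without KO replicate 2 and 0.03 after the length and GC correction. Camk2g/Camk2d was 0.68, 0.64 and 0.62 in KO and 0.68, 0.72 and 0.68 in WT replicates 1, 2 and 3, per kilobase of the longest transcript. The KO ratios were all below the WT ratios, although KO replicate 1 (0.6753) and WT replicate 1 (0.6758) nearly coincided.

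Protein kinase A, which phosphorylates phospholamban after beta-adrenergic stimulation, consists of catalytic subunits held inactive by regulatory subunits until cyclic AMP binds. Prkaca, the catalytic alpha subunit (ENSMUSG00000005469, plus strand of chromosome 8 from 83972993 to 83996443), was at 10312, 8963 and 9300 normalized counts in KO replicates 1, 2 and 3. In WT replicates 1, 2 and 3, it was at 8927, 8500 and 7739. The groups did not overlap, but the lowest KO and the highest WT values lay close together. Prkaca had a log2 fold change of 0.18 (SE 0.08, interval 0.00 to 0.36, adjusted p = 0.206 from limma) and 0.23 without KO replicate 2. Its longest transcript is short, at 2276 nucleotides, and after the length and GC correction its log2 fold change was larger, at 0.28 (adjusted p = 0.276). DESeq2 gave an adjusted p of 0.154, and of 0.0939 with the correction.

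Prkar1a, the regulatory subunit type I alpha (ENSMUSG00000020612, plus strand of chromosome 11 from 109649405 to 109669656), was at 26877, 23289 and 20692 normalized counts in KO and at 22173, 23391 and 20816 in WT replicates 1, 2 and 3. The groups overlapped, and KO replicate 1 was the highest and KO replicate 3 the lowest value. The log2 fold change was 0.09 (SE 0.10, interval -0.14 to 0.32, adjusted p = 0.644 from limma), and it was -0.01 without KO replicate 1. Without KO replicate 2 it was 0.09, as after the length and GC correction. Prkar1a/Prkaca was 1.60 ± 0.141 in KO and 1.71 ± 0.0909 in WT per kilobase (mean ± SD, n = 3 each), and the groups overlapped.

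Ppp1r1a encodes inhibitor-1 of protein phosphatase 1 and was the least abundant of the 8 genes (ENSMUSG00000022490, minus strand of chromosome 15 from 103530279 to 103538003). Its normalized count was 40.7, 96.1 and 94.0 in KO replicates 1, 2 and 3, and 111.7, 99.8 and 105.2 in the same order in WT. All KO values were below all WT values, with KO replicate 1 far below the other 5 libraries. The highest KO value (96.1) and the lowest WT value (99.8) lay close together. The log2 fold change was -0.55 (SE 0.31, interval -1.26 to 0.16, adjusted p = 0.322 from limma), and DESeq2 gave no adjusted p for this gene. It depended on KO replicate 1, with -0.15 without that library, and was -0.76 without KO replicate 2 and -0.38 after the length and GC correction. KO replicate 1 also had the lowest adipocyte markers, with 3 of 3 listed, none at 0, and a sum of 64.5 normalized counts beside 720.2 to 2081 in the other libraries. Its atrial markers, with 4 of 4 listed and none at 0, summed to 15430, beside 24703 to 109120 elsewhere. The other libraries did not follow this order. WT replicate 1 had the next lowest sums, 720.2 for adipocyte and 24703 for atrial markers, and the highest Ppp1r1a value (111.7). KO replicate 3 had the highest adipocyte sum (2081) and a Ppp1r1a value of 94.0. The part of these tissues in the Ppp1r1a value was not tested.

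**Figure D3:**
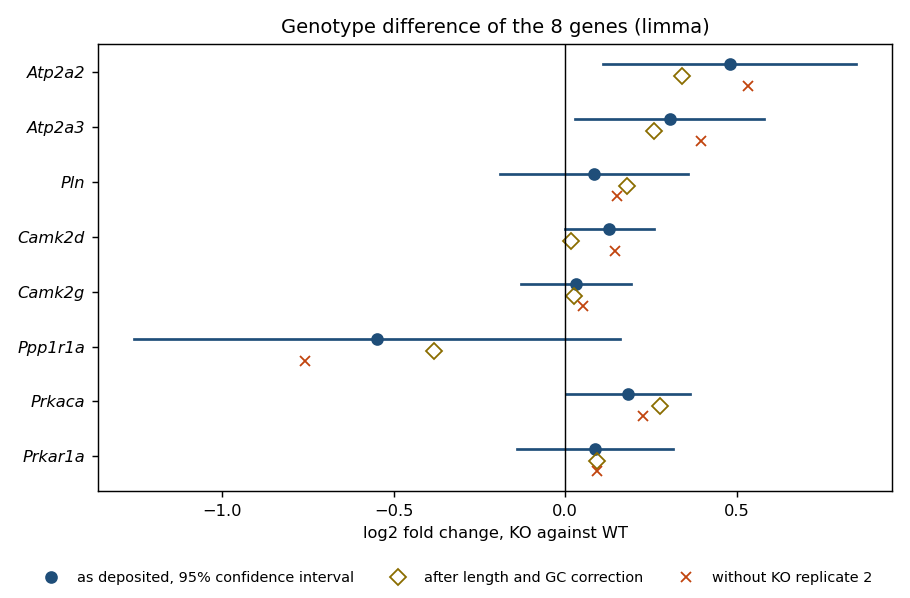
Log2 fold change of KO against WT (x axis) for the 8 genes from limma, with a filled circle and line for the deposited scaling and its 95% confidence interval, a diamond after the length and GC correction and a cross without KO replicate 2. Atp2a2 moves from 0.48 to 0.34 and Camk2d from 0.13 to 0.02 with the correction, and Ppp1r1a has the widest interval, from -1.26 to 0.16.

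A further 49 genes of calcium uptake and its kinase and phosphatase control were described as 5 lists, and 49 of 49 were in the table, 2 of them (Arln and Strit1) matched through older names in RefSeq. With limma, 0 of the 49 passed the adjusted threshold. An unadjusted p under 0.05 was found for 15 of them as higher and for 7 as lower in KO, beside 13.0% and 10.5% of all genes. DESeq2 called 8 as higher and 2 as lower, beside 8.22% and 5.02% of all genes, and 2 as higher after the length and GC correction, beside 1.25%. The same shares of all genes stand beside the counts of each list below. The median log2 fold change of the 49 genes was 0.07. Without KO replicate 2, limma passed 0 in each list, and DESeq2 called 1197 of 11049 genes (10.8%), 7.16% as higher and 3.67% as lower in KO. In that run it called 2 uptake genes as higher and 2 as lower, 0 of CaMKII and calmodulin, 1 of protein kinase A as higher, 2 anchoring proteins as higher and 1 (Akap5) as lower, and 2 of the phosphatase list as higher.

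The list of uptake and its regulators holds the other pumps, the small membrane regulators of SERCA and the calcium-binding proteins of the reticulum. Of its 12 genes, 0 passed the adjusted threshold, 2 had an unadjusted p under 0.05 as higher and 3 as lower in KO, and the median log2 fold change was -0.13. The transcripts of this list are short, with a median of 1299 nucleotides, and after the length and GC correction its median was 0.0028, with 2 genes higher and 0 lower at an unadjusted p under 0.05, beside 7.75% and 6.69% of all genes. Arln, which encodes another-regulin, a small inhibitor of SERCA, was at 1437, 1499 and 1495 normalized counts in KO and at 1906, 1778 and 1778 in WT replicates 1, 2 and 3, without overlap. Its log2 fold change was -0.30 (SE 0.06, adjusted p = 0.0815 from limma), and -0.15 after the length and GC correction. DESeq2 called it (adjusted p = 0.00808), but not with the correction (0.433) or without WT replicate 1 (0.0546). S100a1, a calcium-binding protein that stimulates SERCA2 and the ryanodine receptor, was at 12887, 13195 and 13234 in KO and at 15772, 15685 and 14971 in WT libraries. Its groups did not overlap either, and its log2 fold change was -0.24 (SE 0.06, adjusted p = 0.0844 from limma), and -0.05 after the correction. DESeq2 called it (adjusted p = 0.0068), but not with the correction (0.855).

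Hrc and Strit1 were chosen after their values had been seen. Hrc, the histidine-rich calcium-binding protein that binds SERCA2 and triadin, was at 54854, 47252 and 48797 normalized counts in KO and at 37418, 43652 and 34140 in WT replicates 1, 2 and 3. All KO values were above all WT values. Its log2 fold change was 0.39 (SE 0.11, adjusted p = 0.0921 from limma) and 0.47 after the length and GC correction, and DESeq2 called it both without the correction (adjusted p = 0.0049) and with it (adjusted p = 0.00501), but not without WT replicate 1 (0.057). Strit1 encodes DWORF, a small protein that displaces phospholamban from SERCA. It was at 272.9, 138.5 and 216.4 in KO and at 113.7, 173.6 and 86.6 in WT libraries. Its groups overlapped, with a log2 fold change of 0.75 (SE 0.30, adjusted p = 0.181 from limma). Casq2, the main calcium store protein of the cardiac reticulum and likewise chosen after its values had been seen, had a log2 fold change of 0.01 (interval -0.18 to 0.20).

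In the list of CaMKII and calmodulin, 0 of 7 genes passed, with 1 higher and 1 lower in KO at an unadjusted p under 0.05 and a median log2 fold change of -0.06, or 0.02 after the length and GC correction. Camk2a, the alpha isoform best known from neurons, was at 2985, 2704 and 2578 normalized counts in KO and at 2343, 2440 and 2198 in WT replicates 1, 2 and 3. The groups did not overlap, and the log2 fold change was 0.24 (SE 0.08, adjusted p = 0.115 from limma). Calm2, 1 of the 3 genes that encode the same calmodulin protein, had a log2 fold change of -0.21 (SE 0.09, adjusted p = 0.18 from limma) with overlapping groups, and of -0.04 after the correction. How reads shared between these near-identical coding sequences were counted is not given in the sources used here.

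Of the 7 other protein kinase A subunits and inhibitors, 0 passed, 3 were higher and 1 was lower at an unadjusted p under 0.05, and the median log2 fold change was 0.16. Prkar2a, the regulatory subunit type II alpha, which docks to anchoring proteins, was at 5981, 5139 and 5170 normalized counts in KO and at 4208, 4547 and 4199 in WT replicates 1, 2 and 3. Its groups did not overlap, and its log2 fold change was 0.33 (SE 0.08, adjusted p = 0.0826 from limma). Pkia, a peptide inhibitor of the catalytic subunit, had a log2 fold change of 0.28 (SE 0.09, adjusted p = 0.118 from limma), also without overlap. DESeq2 called both genes, and called neither after the length and GC correction. With single libraries left out, it called Prkar2a except without WT replicate 1 (adjusted p = 0.0532), and it called Pkia only without WT replicate 2 (0.0112).

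A-kinase anchoring proteins hold protein kinase A at particular places in the cell. Of the 10 genes, 0 passed, and 5 were higher and 0 were lower at an unadjusted p under 0.05, beside 13.0% and 10.5% of all genes. The median log2 fold change was 0.24. Akap13 was at 4750, 3950 and 3772 normalized counts in KO and at 2704, 3010 and 2810 in WT replicates 1, 2 and 3. The lowest KO value was above the highest WT value, and the log2 fold change was 0.54 (SE 0.09, adjusted p = 0.0815 from limma). Akap12 had a log2 fold change of 0.42 (SE 0.08, adjusted p = 0.0815 from limma), also without overlap. The transcripts of this list are long, with a median of 6441 nucleotides beside 3188 over all genes. After the length and GC correction, the list's median was 0.10 and Akap13 was at 0.27. DESeq2 called 4 of the 10 as higher, beside 8.22% of all genes, and 0 after the correction. The 4 were Akap6, Akap9, Akap12 and Akap13, of which the first pair was named after the values had been seen. With each library left out in turn, Akap12 and Akap13 were called in 6 of the 6 runs, Akap6 in 2 and Akap9 in 1.

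Of the 13 phosphatases and their regulators, 0 passed, 4 were higher and 2 were lower at an unadjusted p under 0.05, and the median log2 fold change was 0.10. Hspb6, a small heat shock protein that restrains protein phosphatase 1 at the phospholamban complex, was at 25814, 21712 and 21933 normalized counts in KO and at 19748, 19965 and 16762 in WT replicates 1, 2 and 3. All KO values were above all WT values. Its log2 fold change was 0.30 (SE 0.10, adjusted p = 0.121 from limma) and 0.41 after the length and GC correction, and DESeq2 called it without (adjusted p = 0.0298) and with the correction (adjusted p = 0.0174). Uncorrected, this call was lost without KO replicate 1 (0.134), WT replicate 1 (0.0713) or WT replicate 3 (0.142). Ppp3ca, the catalytic alpha subunit of calcineurin, had a log2 fold change of 0.25 (SE 0.09, adjusted p = 0.141 from limma), without overlap.

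**Figure D4:**
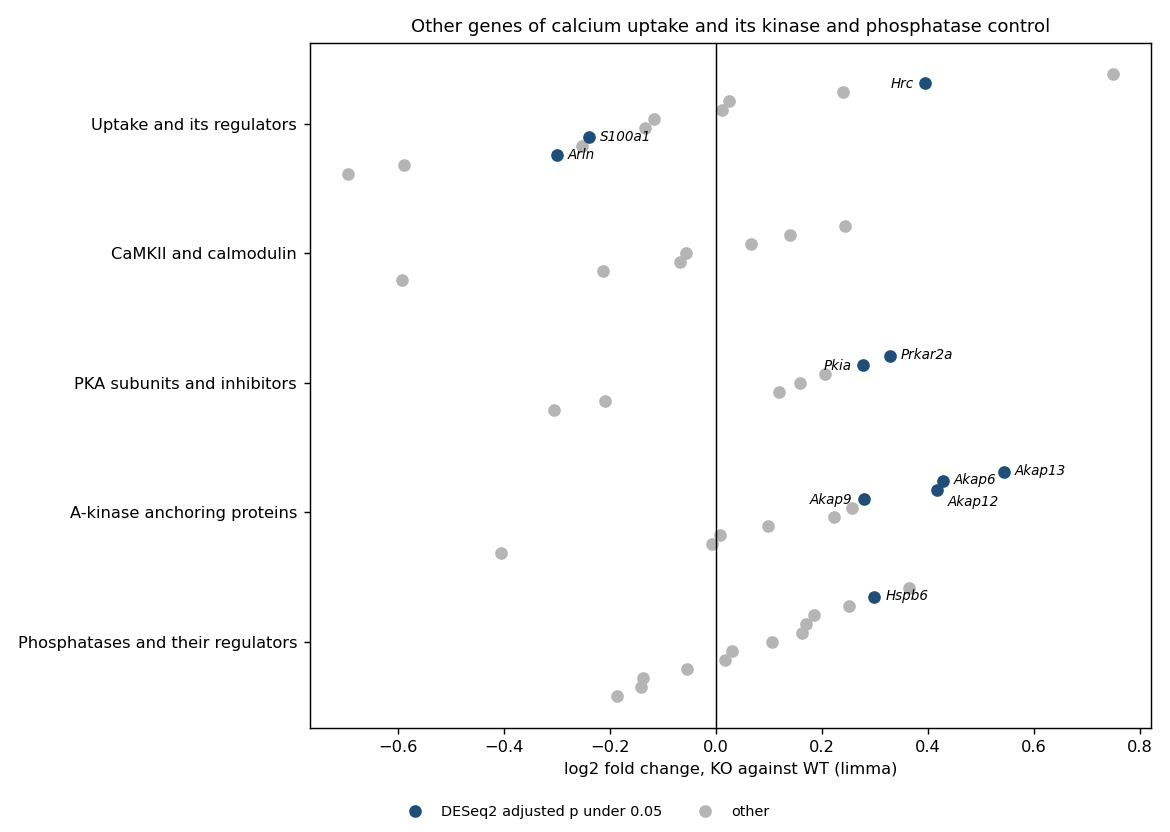
Log2 fold change of KO against WT from limma (x axis) for the 49 further genes in their 5 lists (y axis, with points spread vertically by rank within a list), in blue where DESeq2 without the length and GC correction gave an adjusted p under 0.05 and in grey elsewhere. Of the 10 blue genes, 8 lie right of 0 and 2 lie left of it, and 4 of the 8 are anchoring proteins.

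The genes whose values followed those of Atp2a2, Pln and Ppp1r1a most closely were sought among the 5990 genes that averaged 1000 or more normalized counts. Likeness was Pearson's r of log2(normalized count + 1) over the 6 libraries, with the size factor of each library shared by all genes, and it is given as a description. For Atp2a2, the closest were Map4, which encodes a microtubule-associated protein (r = 0.999), Emc1, a subunit of the membrane protein complex of the endoplasmic reticulum (r = 0.999), and Prpf8, a core splicing protein (r = 0.998). Their longest transcripts, of 6091, 6232 and 7442 nucleotides, are of similar length to that of Atp2a2 or longer, and their log2 fold changes were 0.37, 0.35 and 0.39. For Pln, the closest were Mlip, a lamin-interacting protein of muscle (r = 0.995), AW549877 (r = 0.992) and Sike1 (r = 0.985). Their longest transcripts have 3069, 5076 and 7375 nucleotides, all longer than the 2334 of Pln. For Ppp1r1a, the closest were Ugdh (r = 0.973), Rcn1 (r = 0.972) and Pdia3 (r = 0.971), of which Rcn1 and Pdia3 encode proteins of the endoplasmic reticulum. Each of these was lowest in KO replicate 1, like Ppp1r1a. With 6156, 2720 and 2770 nucleotides, their longest transcripts are longer than that of Ppp1r1a, which has 1306.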

How the data were processed

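Per the submitters' processing notes, the authors used Trimmomatic 0.36, STAR 2.5.2b, featureCounts of Subread 1.5.2 and DESeq2 with GRCm38, with reads of 150 nucleotides in pairs. The annotation, the strand setting and the filter on low genes are not given in the sources used here. The deposited signal is a normalized count per gene. Divided by the value of 1 read, 100% of values in each library were whole within 0.01 read, and the divisors (0.962 to 1.13) equalled the median-of-ratios factors of DESeq2. Reads on genes numbered 41364857 to 49100802 per library. In any pair of libraries, 0.887% to 1.4% of genes had equal reads. No column was left unmapped.

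From these values, log2(normalized count + 1) was compared with limma 3.58.1 (R 4.3.3), with a variance trend, as a two-sided test of 16016 genes (mean of 10 or more), with Benjamini-Hochberg adjustment over all genes and a threshold of 0.05. Fold changes on this scale understate those of low genes. Groups and replicate numbers came from the sample labels, and all 6 libraries were used as labelled. Symbols and positions of 15980 genes came from GENCODE M21, chosen here. The length and GC correction subtracts from each library a fit of its deviations on splines (5 degrees of freedom) in log2 length and GC content of the longest transcript. Whole reads were also tested with edgeR 4.0.16 and DESeq2 1.42.0. The procedures were tested on simulated data.

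The members and lists were chosen with earlier results of these data known. The genes named are the 8 members, Slc4a4, the 2 genes of lowest p in each list when none passed, and the 3 genes most like Atp2a2, Pln and Ppp1r1a; others, among them Sln, Atp2a1 and Prkar2b, were chosen after their values had been seen. Markers of fibroblasts, smooth muscle, macrophages, erythroid cells and skeletal muscle were summed as well, and their sums stand in the closing section. Alternatives were other pseudocounts, filters and scalings, no trend, quality weights, the replicate block, and each library left out.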

Additional observations from a re-analysis of the deposited data

How the results depend on the processing

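With limma and with edgeR, 0 genes passed the adjusted threshold under every other pseudocount, filter, scaling, weighting, block or correction run with all 6 libraries. Leaving out each library in turn gave 0 to 3 genes with limma, with 3 only without KO replicate 2. DESeq2 gave 1587 genes by default, 1404 without independent filtering or outlier removal and 344 with the length and GC correction. Its first runs used independent filtering at 0.05 in place of the default and gave 1633 and, with the correction, 380. It gave 776, 1197 and 1490 without KO replicates 1, 2 and 3 and 428, 1419 and 1118 without WT replicates 1, 2 and 3. The plan named default settings, but the default replaced 0.05 only after the counts of both had been seen. The runs of DESeq2 with the correction and with each library left out were added after the data had been seen.

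Atp2a2 kept a positive difference under every alternative except quantile normalization, where it is 0 by construction. Its log2 fold change was past the threshold in every DESeq2 run, at 0.48 with the default, unfiltered and 0.05 settings, at 0.34 in both runs with the correction, at 0.39, 0.54 and 0.52 without KO replicates 1, 2 and 3, and at 0.44, 0.54 and 0.48 without WT replicates 1, 2 and 3. Leaving out each library gave 0.39 to 0.53 with limma. Atp2a3 passed only with DESeq2 without WT replicate 2 (0.42). Camk2g reversed to -0.041 after rescaling to the same total, to -0.020 after quantile normalization and, with DESeq2, to -0.016 without KO replicate 1 and -0.0068 without WT replicate 1; with each library left out, limma gave -0.013 to 0.071. Prkar1a reversed without KO replicate 1, to -0.010 with DESeq2, and limma gave -0.0098 to 0.179 with each library left out. The cause was not tested. Pln, Camk2d and Prkaca kept their direction and stayed on the same side of the threshold in all runs. Ppp1r1a kept its direction and was not called in any run that gave it an adjusted p, which DESeq2 did not by default and in several others.

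In the lists, DESeq2 called 3 uptake genes with the default, unfiltered and 0.05 settings, 1 with the correction and 1 to 4 with each library left out. It called 0 CaMKII and calmodulin genes with all libraries and 0 to 1 with each left out, 2 genes of protein kinase A (1 unfiltered, 0 with the correction, 0 to 2 with each left out), 4 anchoring proteins (3 unfiltered, 0 with the correction, 2 to 5 with each left out) and 1 gene of the phosphatase list (1 unfiltered and with the correction, 0 to 3 with each left out). Genes with an unadjusted p under 0.05 split into 2083 higher and 1681 lower as deposited, and into 1258 and 2537 after rescaling to the same total, which moved the median of all genes from -0.0043 to -0.0767.

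Same-numbered KO and WT libraries correlated in their deviations at 0.227, 0.072 and -0.029, and only KO replicate 1 correlated best with its own number. Such correlations cannot decide whether the numbers pair the mice, and the labels give no litter or batch. With the replicate block, 0 genes passed, 3924 had an unadjusted p under 0.05, and Atp2a2 stayed at 0.48 (adjusted p = 0.12 from limma). The 4 ratios kept their direction with each library left out. With 3 mice a group, the intervals are wide, and those that span 0 do not give a direction.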

Other observations

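Relatives of the cardiac pump and of its inhibitor that belong to other muscles varied between single libraries more than between genotypes; Sln, Atp2a1 and Prkar2b were chosen after their values had been seen. Sln, which encodes sarcolipin, the SERCA inhibitor of the atria, was at 676.9, 3712 and 4197 normalized counts in KO replicates 1, 2 and 3 and at 1380, 5116 and 6343 in WT replicates 1, 2 and 3. The atrial markers Myl7, Myl4 and Nppa were likewise lowest in KO replicate 1 and next lowest in WT replicate 1, with Nppa at 8086 and 10666 there and at 41543 to 61038 in the other 4 libraries. Sln is itself 1 of the 4 atrial markers.

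Atp2a1, which encodes SERCA1, the pump of fast skeletal muscle, was at 38.7, 640.9 and 99.3 normalized counts in KO replicates 1, 2 and 3 and at 95.3, 93.6 and 170.1 in WT replicates 1, 2 and 3. Mylpf, a light chain of fast skeletal muscle, was at 686.4 in KO replicate 2 and at 26.8 to 164 in the other libraries. The 3 listed skeletal muscle markers of 4 (Myh4 was not listed) summed to 1374 in KO replicate 2 and to 77.4 to 361.9 elsewhere. KO replicate 2 is also the library whose Slc4a4 value goes against its label. Whether these observations are related was not tested.

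Prkar2b, the regulatory subunit type II beta, ranged from 92.3 in KO replicate 1 to 946.3 in KO replicate 3, the libraries with the lowest and the highest adipocyte marker sums (64.5 and 2081). The remaining marker sums overlapped between groups for smooth muscle (20074 to 23306 in KO and 14713 to 27007 in WT), macrophages (4744 to 5209 and 5152 to 5559), fibroblasts (46512 to 53902 and 44746 to 46683) and erythroid cells (28419 to 129100 and 50863 to 113540). Single markers did differ with DESeq2, which called 2 of the 5 fibroblast markers as higher and 1 of the 4 macrophage markers as lower in KO. Of all genes, 8.22% were called as higher and 5.02% as lower. It called 0 of the smooth muscle and erythroid markers.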
